A study of Mus musculus with 12 samples.

Results

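Mesothelin (Msln) and 5 other marker genes of mesothelium, Wt1, Upk3b, Upk1b, Lrrn4 and Muc16, were read from RNA-seq libraries of mouse prostate organoids. They are 6 of the 43243 gene names in the deposited files. They were proposed with earlier results of these data in view: Msln for a lower level in mutant than in control organoids, and the set for its levels in pair S5 beside pairs S0 to S4. Both patterns are therefore given as descriptions, without a test.

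Organoids are Matrigel cultures grown from digested mouse prostate in medium with EGF (5 to 50 ng/ml). The 6 SPOPmut libraries carry a mutant SPOP, the substrate receptor of a cullin ubiquitin ligase, and the 6 SPOPwt libraries are the controls, with both groups numbered S0 to S5. Per the protocols, CreERT2 was delivered by virus with puromycin selection (Line_A, 5 pairs) or came from a TMPRSS2-CreERT2 transgene (Line_B, 1 pair). Which line a given library came from is not in the labels. It was activated overnight with 1 µM 4-Hydroxytamoxifen, after which cells were sorted for GFP, or sham sorted as controls, so genotype and GFP selection cannot be told apart. The SPOP allele of these inducible lines is not stated; the protocol names R26F133V only for a separate set of lines with Cre under the Probasin promoter. Mouse age and strain are likewise not given in the sources used here, and neither is whether pairs came from separate animals or cultures, so the spread between pairs may be technical.

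Mesothelium is the flat cell layer that lines the body cavities and covers the organs in them. Its cells make keratins as epithelia do, but derive from mesoderm and can take on fibroblast features. Mesothelin is a surface protein held by a lipid anchor, made as a precursor that furin cuts, and it binds the membrane mucin MUC16 (CA125). It is best known as an antigen of mesothelioma, ovarian and pancreatic cancer, so it is not confined to mesothelium.

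Msln was abundant in every library, and the other 5 genes were close to or at 0 in pairs S0 to S4. In SPOPmut organoids Msln stood at 104 RPKM (reads scaled to transcript length and to the depth of the library) in S0, 54.4 in S1, 85.5 in S2, 31.8 in S3, 69.6 in S4 and 308 in S5. In SPOPwt organoids it stood at 194 RPKM in S0, 118 in S1, 118 in S2, 35.9 in S3, 98.5 in S4 and 520 in S5. Both S5 libraries lay above all 10 libraries of S0 to S4, and both S3 libraries lay below all others. The mean over the S5 libraries was 414 RPKM against 91.0 RPKM over the 10 others, a ratio of 4.55. Ordered by pair mean, S5 was followed by S0 (149 RPKM), S2 (102), S1 (86.1), S4 (84.1) and S3 (33.9). The ranges of S0, S2, S1 and S4 overlapped from each to the next, whereas neither S5 nor S3 overlapped any other pair. Among all genes of a library, Msln ranked 65th in the S5 control and 118th in the S5 mutant, and between 263 and 1746 from the top elsewhere. With exon lengths of the GENCODE M21 annotation these levels correspond to about 2752 to 65248 reads per library. In bulk RNA, fewer cells of a type and less RNA per cell cannot be told apart.

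**Figure D1:**
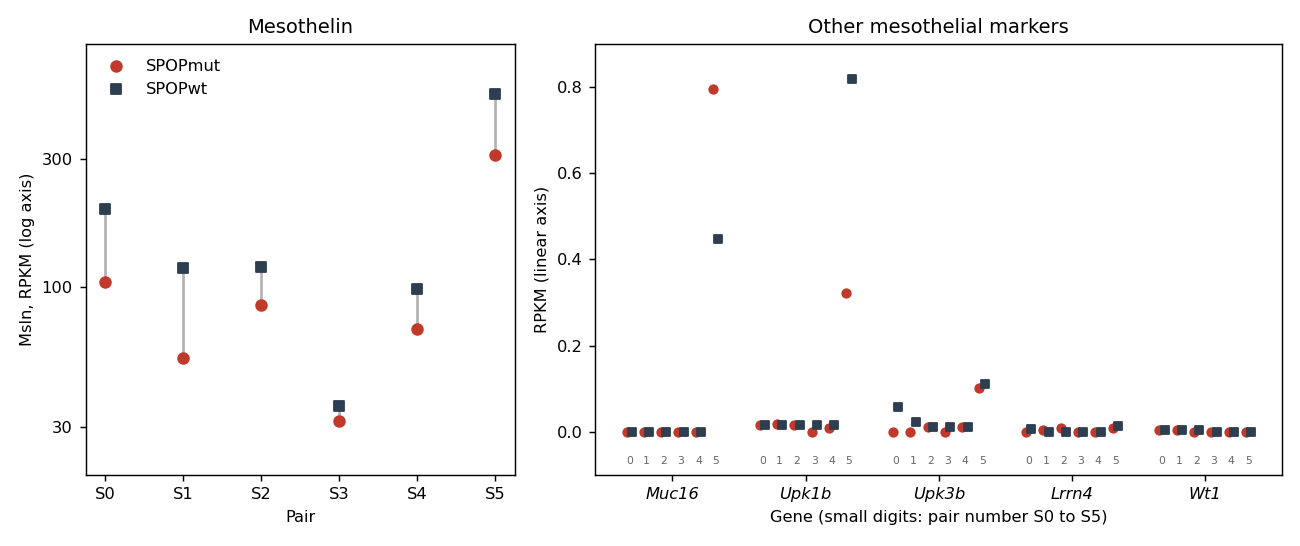
RPKM of the 6 genes in each of the 12 libraries, by pair (S0 to S5) and group (circles SPOPmut, squares SPOPwt), with Msln on a log axis and the other 5 genes on a linear axis. Msln ran from 31.8 to 520 RPKM, while the other 5 genes stayed under 0.82 RPKM and, outside S5, at no more than 0.057 RPKM.

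Summed, the 5 other genes reached at most 0.083 RPKM in any library of S0 to S4, and 1.23 and 1.39 RPKM in the S5 mutant and control. Wt1, the zinc finger transcription factor of developing mesothelium and kidney, was listed at 0 in 6 libraries, both of S5 among them, and at no more than 0.0049 RPKM in the rest. That is a level of about 1 read. Lrrn4, a leucine-rich repeat membrane protein used as a mesothelial marker, was listed at 0 in 7 libraries and reached 0.013 RPKM at most, about 2 reads in the S5 control. Neither gene was thus detectable above single reads in any pair, and Msln stood without them throughout.

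Uroplakins are membrane proteins of the bladder surface, of which Upk3b and Upk1b are also made by mesothelium. Upk3b stood at 0.10 RPKM in the S5 mutant and 0.11 RPKM in the S5 control, about 12 and 16 reads. In S0 to S4 it was listed at 0 in 3 of the 10 libraries and was highest in the S0 control, at 0.057 RPKM. Upk1b stood at 0.32 RPKM in the S5 mutant and 0.82 RPKM in the S5 control, and at 0 to 0.017 RPKM in S0 to S4. Muc16, the mucin that binds mesothelin, stood at 0.80 RPKM in the S5 mutant and 0.45 RPKM in the S5 control. It was listed at 0 in all 10 libraries of S0 to S4. Because the Muc16 transcript is very long (26350 exon bases in GENCODE M21), its S5 values correspond to about 710 and 483 reads, if the authors used a model of like length. Both S5 libraries exceeded all 10 others for 5 of the 6 genes (Wt1 was the exception), and for 20.5% of all genes above 0 in at least 1 library. For Lrrn4 that is a matter of single reads. Nothing is read from this count, since the genes were proposed with that contrast in view.

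The windows of 250 bases upstream of the RefSeq start (GRCm38.p6) are shown for Upk3b and Muc16, which were at no more than about 7.61 and 0 reads in S0 to S4 and above that in S5. An MCAT element, the site of TEAD transcription factors, is known from an enhancer upstream of the human mesothelin gene. Its core CATTCC was searched on both strands and is in capitals. The windows are chr5:136038246-136038495 (plus strand) and chr9:18674604-18674853 (minus strand).
Upk3b: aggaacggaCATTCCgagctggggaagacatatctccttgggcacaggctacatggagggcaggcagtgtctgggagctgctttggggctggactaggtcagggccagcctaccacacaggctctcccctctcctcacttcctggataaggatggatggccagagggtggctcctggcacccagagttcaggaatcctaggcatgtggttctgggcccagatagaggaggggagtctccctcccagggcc
Muc16: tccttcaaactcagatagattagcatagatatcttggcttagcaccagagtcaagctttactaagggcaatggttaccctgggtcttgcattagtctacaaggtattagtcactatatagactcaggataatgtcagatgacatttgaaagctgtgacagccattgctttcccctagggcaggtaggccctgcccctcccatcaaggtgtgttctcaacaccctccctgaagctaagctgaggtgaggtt
The Upk3b window holds 1 match, whose first base lies 241 bases before the start, and the Muc16 window holds none. The window of Lrrn4 also holds 1, on the other strand. Such a match occurs in 12.6% of 32817 upstream windows of this length, and it is a description of letters, not a site. Neither printed window holds TATAAA (found in 12.4% of windows) or GGGCGG (32.7%) on either strand, and these cores do not overlap CATTCC. Promoter entries were matched for 3 of the 6 genes; Msln, Wt1 and Upk1b had none.

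In GRCm38, Msln lies on chromosome 17 at 25748613 to 25754378 on the minus strand and overlaps no other gene. Its nearest neighbour is the paralog Mslnl, 283 bases away. Wt1 lies on chromosome 2 at 105126529 to 105173616 and overlaps no other gene, with the antisense gene Wt1os 19 bases away. Upk3b lies on chromosome 5 at 136038496 to 136046487, Upk1b on chromosome 16 at 38773184 to 38800328, Lrrn4 on chromosome 2 at 132868305 to 132880891 and Muc16 on chromosome 9 at 18495455 to 18674530, where it overlaps Gm25295. All 6 are protein-coding genes. Over which exons their RPKM were taken is not given in the sources used here.

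The organoid label was set beside markers of the cell types a prostate culture can hold. All 18 epithelial markers, which include the adhesion protein gene Epcam and the basal keratin genes Krt5 and Krt14, were higher in both S5 libraries than in the 10 others, with a summed level of 3136 to 4291 RPKM against 2.38 to 15.1 RPKM. Of all genes above 0, 20.5% were higher in S5 in that way. The 12 fibroblast markers summed to 46.1 and 46.2 RPKM in S5 and to 1519 to 3143 RPKM in S0 to S4. Of these, 9 were lower in both S5 libraries than in the 10 others, beside 17.0% of all genes above 0. The other 3 (Lum, Thy1 and Fbln2) overlapped. In S0 to S4 Lum reached 1.59 RPKM at most and Thy1 at most 0.020 RPKM. Fbln2 averaged 30.5 RPKM in S5, the largest part of the sum there, and ran from 5.47 to 48.7 RPKM in S0 to S4. Pairs S0 to S4 thus went against the epithelial sense of the organoid label. The immune markers summed to no more than 7.73 RPKM and the endothelial markers to no more than 3.26 RPKM in any library. Of the 6 immune markers 4 stayed under 1 RPKM throughout, among them the pan-leukocyte gene Ptprc, listed at 0 in 9 libraries. The other immune markers, Cd68 and Csf1r, exceeded 1 RPKM in every library. Cd68 ranged between 2.13 and 4.74 RPKM, with S5 overlapping the other pairs. Csf1r was higher in both S5 libraries (3.83 and 3.21 RPKM) than in all others, where it reached 1.80 RPKM at most. Msln was therefore high beside a full set of epithelial markers in S5 and still held 31.8 to 194 RPKM in the other pairs. There 11 of the 18 epithelial markers stayed under 1 RPKM. Epcam reached 1.28 RPKM in those pairs, Cldn4 3.64 RPKM and Krt15, the highest of the 18, 8.15 RPKM. What part these cell types had in its level was not tested.

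**Figure D2:**
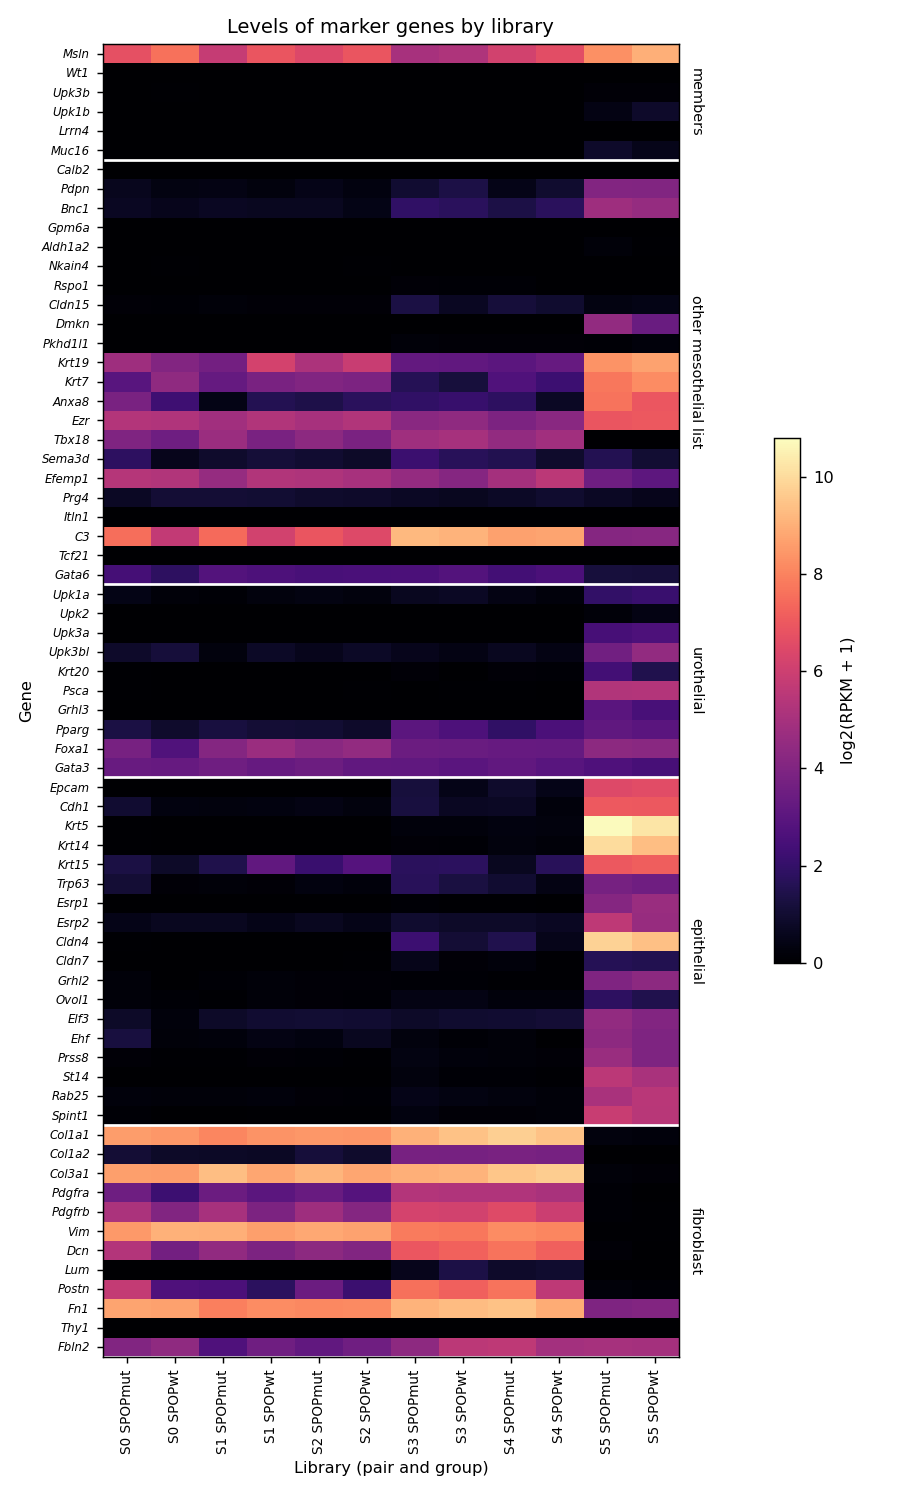
Colour gives log2(RPKM + 1) of marker genes (rows, grouped by list) in the 12 libraries (columns, by pair and group). Msln is bright in every column, the 5 genes below it are dark or nearly so, and the epithelial block (3136 to 4291 RPKM summed) is brightest in the 2 S5 columns.

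A further 22 genes described in mesothelium did not behave alike. Several were at or near 0: Calb2 (calretinin) was listed at 0 in 11 libraries, Itln1 (intelectin) in 10, Gpm6a in 8, Nkain4 in 5 and Rspo1 in 7, and their highest levels in any library were 0.018, 0.0024, 0.011, 0.054 and 0.12 RPKM. Together 8 of the 22 stayed under 1 RPKM in every library. In the comparison of S5 with the other pairs, 8 genes were higher in both S5 libraries than in all others, 4 were lower and 10 overlapped. The 8 were the keratin genes Krt19 (336 and 413 RPKM in S5) and Krt7 (213 and 297 RPKM), the annexin gene Anxa8, the membrane linker ezrin (Ezr), podoplanin (Pdpn), the transcription factor Bnc1, dermokine (Dmkn) and Aldh1a2, an enzyme of retinoic acid synthesis. Aldh1a2 was also under 1 RPKM throughout (0.13 and 0.041 RPKM in S5). The other 7 are made by epithelia too. Of the genes that were above 0 in at least 1 library, 20.5% were likewise higher in S5. The overlapping genes included Sema3d (0.47 to 3.48 RPKM in S0 to S4) and Prg4 (at most 1.09 RPKM there), with Cldn15 also above 1 RPKM in at least 1 library.

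The 4 genes that were lower in both S5 libraries than elsewhere were the transcription factor genes Tbx18 and Gata6, the matrix protein gene Efemp1 and the complement component C3 (17.0% of all genes above 0 did so, and 28.1% of those that passed the filter on low values). Tbx18 held 10.4 to 30.6 RPKM in the first 5 pairs against 0.0063 and 0.0052 RPKM in the S5 mutant and control. C3 held 52.1 to 597 RPKM against 17.0 and 17.4 RPKM. Fibroblasts express such genes too. Pairs S0 to S4 thus held several genes described in mesothelium, among them Krt19 (7.06 to 72.2 RPKM), Ezr (14.0 to 39.0), Krt7 (1.32 to 20.1) and Efemp1 (16.6 to 46.3), beside Msln. In the same libraries Calb2, Wt1, Upk3b and Lrrn4, picked here after their values were seen, were at no more than 0.057 RPKM.

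Urothelial genes were set beside the uroplakins, as bladder borders the prostate. Of 10 genes, 7 were higher in both S5 libraries than in all others, beside 20.5% of all genes above 0. They included Upk3a (4.54 and 5.29 RPKM in S5, 0.013 RPKM at most elsewhere), Upk1a (2.88 and 3.37 RPKM), Upk2 (0.14 and 0.31 RPKM) and Psca, a surface protein of prostate and bladder (38.7 and 39.9 RPKM). Upk3bl, the paralog of Upk3b, reached 11.1 and 21.4 RPKM in S5, against 0.22 to 1.22 RPKM in the other pairs. Gata3 went the other way, with 5.49 and 4.51 RPKM in S5 against 6.53 RPKM or more elsewhere, and Pparg and Foxa1 overlapped. The S5 level of Upk1b was below those of Upk1a and Upk3a in each library. Sharing of reads between Upk3b and Upk3bl is possible, since the treatment of reads with several mapping places is not given in the sources used here.

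Mesothelin's relatives did not share its level. Its paralog Mslnl stood at 0.16 to 0.63 RPKM over the 12 libraries, Otoa (otoancorin) at no more than 0.12 RPKM and Strc (stereocilin) at no more than 0.017 RPKM. Furin, whose protease can cut the precursor, stood at 10.2 to 21.8 RPKM and overlapped between S5 and the other pairs. Of 5 other membrane mucins, Muc1 was the most abundant at 0.50 to 2.18 RPKM. Of the 5, 2 were higher in both S5 libraries than elsewhere, beside 20.5% of all genes above 0, and 3 overlapped. The 2 were Muc4 (0.13 RPKM in both S5 libraries) and Muc15 (0.44 and 0.26 RPKM), both under 1 RPKM throughout. Of the duct transcription factor genes Pax8, Pax2, Emx2 and Lhx1, Emx2 was the 1 gene above 1 RPKM, with 1.72 to 3.24 RPKM outside S5 and a listed 0 in both S5 libraries.

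Between genotypes, Msln was lower in SPOPmut than in SPOPwt in each of the 6 pairs. The control held 1.87 times the mutant level in S0, 2.17 times in S1, 1.38 times in S2, 1.13 times in S3, 1.41 times in S4 and 1.69 times in S5. The mutant mean was 109 ± 101 RPKM and the control mean 181 ± 174 RPKM (SD, n = 6), and the 2 groups overlapped widely. On the log2(RPKM + 1) scale it averaged -0.65 (SE 0.12 from the fit in limma with pair as a block), between -1.10 in S1 and -0.17 in S3. A lower level in all 6 pairs was seen for 1.68% of the 13600 tested genes. As Msln was chosen for this difference, nothing is read from that share. Over all genes, the 2 S0 libraries hardly deviated together (correlation 0.0602, against 0.753 or more in the other pairs), and without S0 the mean was -0.60.

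**Figure D3:**
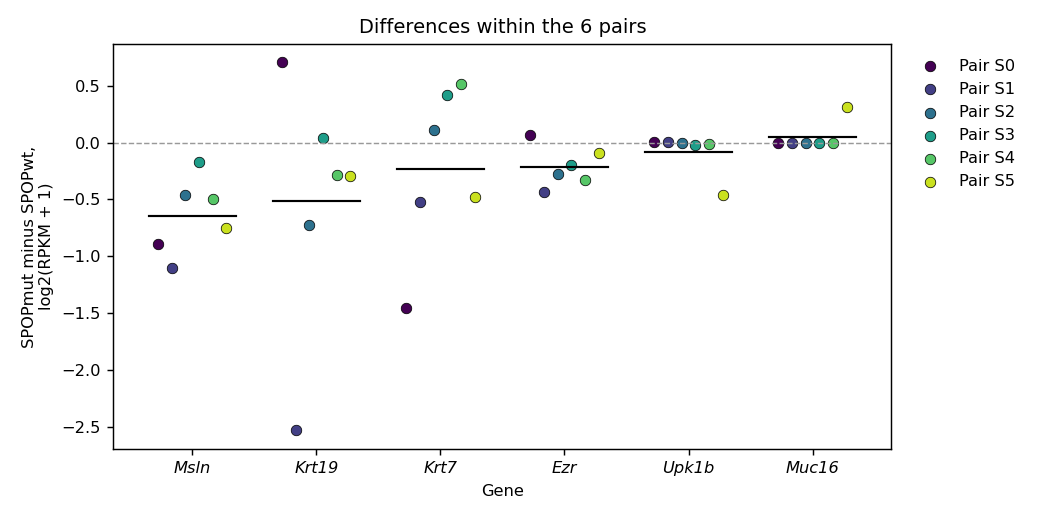
Difference of SPOPmut minus SPOPwt in log2(RPKM + 1) for 6 genes, with 1 point per pair (colour) and the mean over pairs as a horizontal line. Msln lies below 0 in all 6 pairs, while Krt19, Krt7 and Ezr each lie above 0 in at least 1 pair and Upk1b and Muc16 leave 0 visibly in S5 alone.

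The 5 other genes failed the filter on low values (at least 1 RPKM in at least 6 of 12 libraries) and so have no fitted difference; 1 of the 6 passed it. In S5, the pair in which Upk1b and Muc16 were above single reads, they differed in opposite directions. Upk1b was lower in the mutant, with a difference of -0.46 on the log2(RPKM + 1) scale, and Muc16 was higher, by 0.31. Upk3b differed there by -0.012, less than its spread over the pairs (SD 0.030). These are single pairs, with no replicate check.

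Among the other genes, none of the 13600 tested reached an adjusted p under 0.05 in limma (0.00% called), and 761 had an unadjusted p under 0.05 (5.60%). Of the 22 further mesothelial genes 10 were tested and 0 were called, with 6 higher and 4 lower on average and a median difference of 0.061, beside 0.00055 over all tested genes. The smallest p-values in that list belonged to the semaphorin gene Sema3d, with a difference of 0.48 (SE 0.17, limma adjusted p = 0.881, higher in 5 of 6 pairs), and to Ezr, with -0.21 (SE 0.080, limma adjusted p = 0.881, lower in 5 of 6 pairs). The 2 most abundant were C3, with 0.59 (SE 0.26, limma adjusted p = 0.886) and Krt19, with -0.52 (SE 0.35, limma adjusted p = 0.887). Krt19 was lower in 4 of 6 pairs. Its difference was lowest in S1 (-2.53), as that of Msln was, and -0.72 in S2, 0.039 in S3, -0.29 in S4 and -0.30 in S5. In S0, whose 2 libraries hardly deviated together, Krt19 differed by 0.70 and Msln by -0.89. The mean difference of Krt19 was -0.11 without S1 and -0.87 without S0 and S5. The C3 difference came mostly from S0 (1.79) and S1 (1.32), and was 0.35 without S0. The Sema3d difference was largest in S0 (1.27) and was 0.32 without that pair, 0.25 without S0 and S5, and 0.77 with a pseudocount of 0.1.

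Furin, the 1 tested gene of the mesothelin family and processing list, differed by 0.097 (SE 0.087, limma adjusted p = 0.887), with a mutant mean of 15.5 ± 3.09 RPKM and a control mean of 14.7 ± 4.64 RPKM (SD, n = 6). The Furin difference was 0.056 without S1, 0.18 without S3 and 0.035 without S0 and S5. No other membrane mucin passed the filter. Among the urothelial genes 3 of 10 were tested and 0 called. Gata3, a transcription factor of luminal and urothelial cells, was higher in 6 of 6 pairs by 0.23 (SE 0.059, limma adjusted p = 0.786), beside 3.62% of tested genes higher in all pairs. Pparg differed by 0.12 (SE 0.14, limma adjusted p = 0.903) and Foxa1 by 0.053 (SE 0.19, limma adjusted p = 0.963). The Pparg difference was 0.052 without S0, 0.060 without S3, 0.27 without S4, 0.026 without S0 and S5, 0.20 with a pseudocount of 0.1 and 0.18 after rescaling to equal sums. Emx2 differed by 0.18 (SE 0.072, limma adjusted p = 0.886) and was higher in 5 of 6 pairs. It was listed at 0 in both S5 libraries, so its difference there is 0 whatever the genotype does. Without S5 the mean was 0.21.

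Summary levels of the cell type markers differed less between genotypes than over the pairs. The mean log2 level of the 18 epithelial markers was 1.30 ± 2.15 in SPOPmut and 1.19 ± 2.09 in SPOPwt, and that of the 12 fibroblast markers 4.47 ± 1.91 and 4.26 ± 1.86 (SD, n = 6). Of the 10 fibroblast markers tested, 4 (Col1a2, Pdgfra, Pdgfrb and Postn) were higher in SPOPmut in all 6 pairs. Of all tested genes 3.62% were, and 0 of the markers were called in limma. In S5 these 4 were at 0.15 RPKM (Postn) or less, so that pair adds little to the count, and nothing is read from it. What part the levels of these markers had in the lower Msln level was not tested. Of the 18 epithelial markers 1 was tested and 0 were called.

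The genes of most similar profile to Msln were found by the mean absolute difference between log2(RPKM + 1) profiles over the 12 libraries, each gene set to its own mean, among 7687 tested genes that reach 10 RPKM. The median over these genes was 0.90. Nearest was Hbegf, a ligand of the EGF receptor (0.24), followed by the membrane protein gene Gprc5a (0.32), the serine synthesis gene Psph (0.35), the stress-induced pseudokinase gene Trib3 (0.35), Sh3bgrl2 (0.35), the heme synthesis gene Cpox (0.37), the kinase gene Plk2 (0.38) and the asparagine synthetase gene Asns (0.38). All 8 were higher in both S5 libraries than in all others, as were 21.4% of the 13600 tested genes. The 8 were chosen for a profile like that of Msln, S5 included, so nothing is read from this count.

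Hbegf stood at 23.8 and 26.5 RPKM in the S5 mutant and control against 1.09 to 7.22 RPKM in the other pairs. Its difference between genotypes was -0.28 (SE 0.087, limma adjusted p = 0.881). Hbegf, Psph and Sh3bgrl2 were lower in SPOPmut in 6 of 6 pairs, but the similarity used the same 12 libraries, so these directions are part of it. Of the further mesothelial genes, Ezr came nearest, at 0.46 (rank 36), while Krt7 (0.88, rank 3420) and Krt19 (0.93, rank 4347) lay close to the median of all genes. Tbx18 was at 2.01 (rank 7583) and C3 at 2.25 (rank 7640). The fibroblast genes compared ran from Fbln2 at 1.17 (rank 6485) to Col3a1 at 3.11 (rank 7684). Genes under the filter were not compared, and of the 18 epithelial markers 1 was. That was Krt15, at 1.14 (rank 6326), also farther from Msln than the median gene. Over the 10 libraries of S0 to S4 alone Hbegf was again nearest (0.22), Plk2 stood 8th, and the other 6 left the nearest 8.

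**Figure D4:**
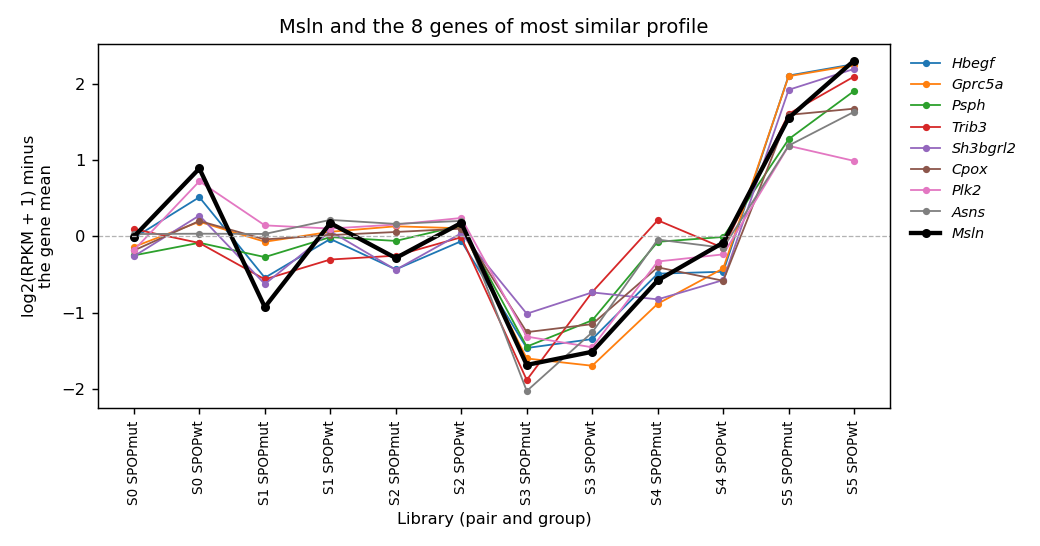
Profiles of Msln (black) and its 8 most similar genes (colours) over the 12 libraries, as log2(RPKM + 1) minus each gene's mean. All 9 lines are highest in an S5 library and lowest in an S3 library, and the Msln line steps down from control to mutant in each pair.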

How the data were processed

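RNA of 6 SPOPmut and 6 SPOPwt organoid cultures was sequenced as paired-end reads from TruSeq libraries, which do not mark strand, per the labels' protocols. The deposited values are RPKM, which the authors computed for each library, per the file names. Alignment tool and builds are STAR 2.4.0j, mm10 and GRCm38, per the submitters' processing notes. How reads were counted, and over which gene models, is not given in the sources used here.

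From the steps between low values and GENCODE M21 exon lengths (GRCm38; 91.0% of names matched), depth came to 28270000 to 40980000 reads, searched up to 50000000. Searched to 60000000, 1 library (S3 SPOPmut) gave 56550000, so read numbers are approximate to a factor of 2. Of low values 40.3 to 44.0% lay within 0.04 of a multiple of 0.5 reads, so whole reads were not recovered and no count test was run.

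Values were taken as log2(RPKM + 1), which understates changes of low genes. limma 3.58.1 (R 4.3.3) fitted pair and genotype for 13600 genes at 1 RPKM or more in at least 6 libraries, with trended, robust priors and two-sided Benjamini-Hochberg p-values called under 0.05. The fit was also run on simulated data with independent noise in each gene and library. That run does not show which changes the fit misses in these data, and nothing is read from it. Tables and figures used Python 3.11.15, pandas 2.3.3, numpy 2.4.6 and matplotlib 3.10.9.

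Pairs follow the labels. Deviations from group means correlated by 0.753 (S1), 0.888 (S2), 0.946 (S3), 0.862 (S4), 0.954 (S5) and 0.0602 (S0). The most alike libraries, the S1 and S2 controls, had a median chi-square of 1.28 over genes against 0.455 from sampling, and none were merged. Members and lists were chosen with earlier results of these data known. Named were all members; in each other list the genes called, or else the 2 of smallest p, and the 2 of highest mean level among those tested; and the 8 genes nearest to Msln in profile. Others were picked from the fixed lists after their values were seen. Alternatives were other pseudocounts, filters and scalings, no block, and each pair left out.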

Additional observations from a re-analysis of the deposited data

Results flagged for a closer look

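In groups of 6, a library standing apart is one whose gap to the next exceeds Dixon's critical share of the whole range, which chance gives in about 1 of 20 groups. That rate does not apply to the levels in S5 given here, since the members were proposed with the S5 contrast in view and the similar genes were chosen for a profile like that of Msln; those shares are descriptions. Among 42 groups examined (levels in each genotype and differences over pairs, for the 6 members and the 8 genes most like Msln) 24 stood out, and most are the S5 library. No count over all genes stands beside this one, and nothing is read from it. For Msln the S5 gap was 0.738 of the range in SPOPmut and 0.673 in SPOPwt. It was 0.881 for Upk3b in SPOPmut, 0.947 and 0.998 for Upk1b, and 1 for Muc16 in each genotype, whose other libraries are all listed at 0. The S5 difference between genotypes stood apart for Upk1b (0.948, low) and Muc16 (1, high). In S0 to S4 Muc16 was listed at 0 and Upk1b was at no more than about 1.18 reads. Their differences there are thus 0 or close to 0, whatever the genotype does. The rate of 1 of 20 does not apply to these shares either, and nothing on genotype is read from them.

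Of the similar genes, S5 stood apart in SPOPmut and SPOPwt for Hbegf (0.842 and 0.764), Gprc5a (0.806 and 0.812), Psph (0.711 and 0.806), Trib3 (0.681 and 0.894), Sh3bgrl2 (0.897 and 0.847) and Cpox (0.761 and 0.745), and in SPOPwt for Asns (0.723). The Plk2 difference was lowest in S0 (0.736). The Wt1 difference was lowest in S2 (0.799), at a level of single reads.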

How the results depend on the processing

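In the limma fit 0 genes were called under each of the 14 alternatives (other pseudocount, 2 other filters, no replicate block, 3 scalings, each pair left out, S0 and S5 left out), and the smallest adjusted p was 0.101, without S0 and S5. The Msln difference stayed between -0.74 (without S3) and -0.55 (without S1), and was -0.61 with quantile normalization. Without the replicate block it was -0.65 as before with an SE of 0.62 in place of 0.12, and 29 genes had an unadjusted p under 0.05 in place of 761; no call changed. The S5 to S0 to S4 ratio of Msln was 4.56 and 4.61 under the 2 other scalings. Among the other named genes, Foxa1 (0.053) ran from -0.15 (without S0) to 0.18 (without S1) with 1 pair left out, and was -0.21 without S0 and S5. With a pseudocount of 0.1, Upk3b moved to -0.19 and Wt1 to -0.0092. The Wt1 difference (-0.00093) was 0.00020 without S2. Without S5 the Muc16 difference was 0 and the Upk1b difference -0.0053. Scalings and the stricter filter were not run for the 5 members under the filter. Of the 8 genes most like Msln, 2 remained over the 10 libraries of S0 to S4 and 5 with a pseudocount of 0.1, both chosen after seeing the data. Depth limits Wt1, Lrrn4 and Upk3b to at most about 15.9 reads, too few to compare genotypes.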
